A study of Homo sapiens with 3 samples.

Results

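UM-UC-3 is a cell line grown from a human bladder cancer. Its cytokine genes were followed as a set of 83 chemokines, interleukins, colony-stimulating factors and related ligands out of 50867 genes in the deposited count table. A gene was a member when its symbol was CXCL or CCL with a number, IL with a number and at most 1 letter from A to G, CSF1, CSF2, CSF3, LIF, TNF or TSLP, and receptors were left out. RNA sequencing covered 3 libraries. The shControl library came from cells infected with lentivirus carrying a scramble short hairpin RNA, and the shBLACAT2 libraries, called shRNA 1 and shRNA 2 here, came from cells infected with lentivirus carrying 1 of 2 hairpins that target BLACAT2, a long non-coding RNA. All cells were of the same line and, per the labels' protocols, were kept under puromycin for 2 weeks to give stable lines, so that each condition is 1 selected population and 1 library. The series asks which genes depend on BLACAT2.

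Cytokines are small secreted proteins that carry messages between cells. Chemokines guide migrating leukocytes along gradients, the CXC group with an ELR motif acting on neutrophils and many CC members on monocytes and lymphocytes. Interleukins and the colony-stimulating factors set growth, survival and activation of immune cells, and tumour cells and urothelium also make several of them. Their genes are typically switched on by NF-kB, AP-1 and interferon-activated factors, and their mRNAs are short-lived.

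The libraries held between 16216947 and 17670199 counts. The target, listed as LINC00958 (hg38, chromosome 11, 12961842 to 12989548), had 938 counts in shControl, 816 with shRNA 1 and 1062 with shRNA 2, which scales to ratios of 0.735 (95% counting interval 0.668 to 0.808) and 0.996 (0.911 to 1.09). A lower level was not seen in the library labelled shRNA 2, and every difference below belongs to a library labelled with a hairpin. The fibronectin gene FN1 took 5.53% of shControl counts against 1.72% and 1.67%. Keratin genes of urothelial carcinoma were abundant, KRT7 with 13229 to 20236 counts per library, whereas KRT20 had 0 counts. Of the 9 tested markers on that list, 1 was at least 2-fold lower and 1 higher with both hairpins (4.50% and 5.29% of all tested genes). In the order shControl, shRNA 1 and shRNA 2, TP63 had 85, 8 and 13 counts and UPK2 35, 108 and 104. KRT5 had 5590, 6605 and 1707 counts and KRT19 9382, 23999 and 8677. Of 14 leukocyte markers, CD3D and CD68 had 0 counts in every library, PTPRC had 0, 3 and 4 counts, and 10 never reached 10 counts. The list as a whole summed to 133 scaled CPM (the read count normalised to library size with TMM factors) in shControl, 131 with shRNA 1 and 151 with shRNA 2, mostly CD74.

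A minority of the cytokine genes were transcribed at a measurable level. Of the 83, 24 had no count in any library, 27 had between 1 and 9 counts at most, and 32 reached 10 counts in at least 1 library. The 24 silent genes included IL2, IL3, IL17A, IL22, CCL7 and CCL8, all better known from lymphoid or myeloid cells. A count of 0 allows a true level of up to 0.198, 0.168 and 0.174 scaled CPM (3 counts) in shControl, shRNA 1 and shRNA 2. A gene entered the tests when its mean over the 3 libraries was at least 1 CPM, and 27 members did so. A gene can enter through 1 high library, which then makes a difference between libraries likely. CCL2 (scaled CPM 11.6, 0.558 and 0.523 in shControl, shRNA 1 and shRNA 2) and TNF (5.75, 0.782 and 0.581) entered through shControl. CCL28 (0.264, 5.75 and 1.10) entered through shRNA 1 and CXCL11 (0.661, 0.447 and 3.25) through shRNA 2. Together the members took 0.0637% of all counts in shControl, 0.0432% with shRNA 1 and 0.0661% with shRNA 2.

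A few ligands carried most of these counts. LIF, CXCL1 and CXCL8 gave 47.2% of member counts in shControl, CXCL8, LIF and CXCL16 63.0% with shRNA 1, and LIF, CXCL16 and CXCL8 60.5% with shRNA 2. Per kilobase of merged annotated exon, the scaled level in shControl was highest for CXCL1 (55.7 CPM per kilobase), CSF2 (54.5) and LIF (47.9), followed by CXCL8 (28.3), IL6 (24.9) and IL11 (20.2). With shRNA 1 the order on the same scale began with CXCL8 (45.3), CXCL1 (31.8) and LIF (25.3), and with shRNA 2 with LIF (55.1), CXCL16 (32.2) and CXCL8 (30.3). CXCL1 and CSF2 in shControl differed by little on this scale, and no library has a replicate against which such neighbours could be ordered.

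**Figure D1:**
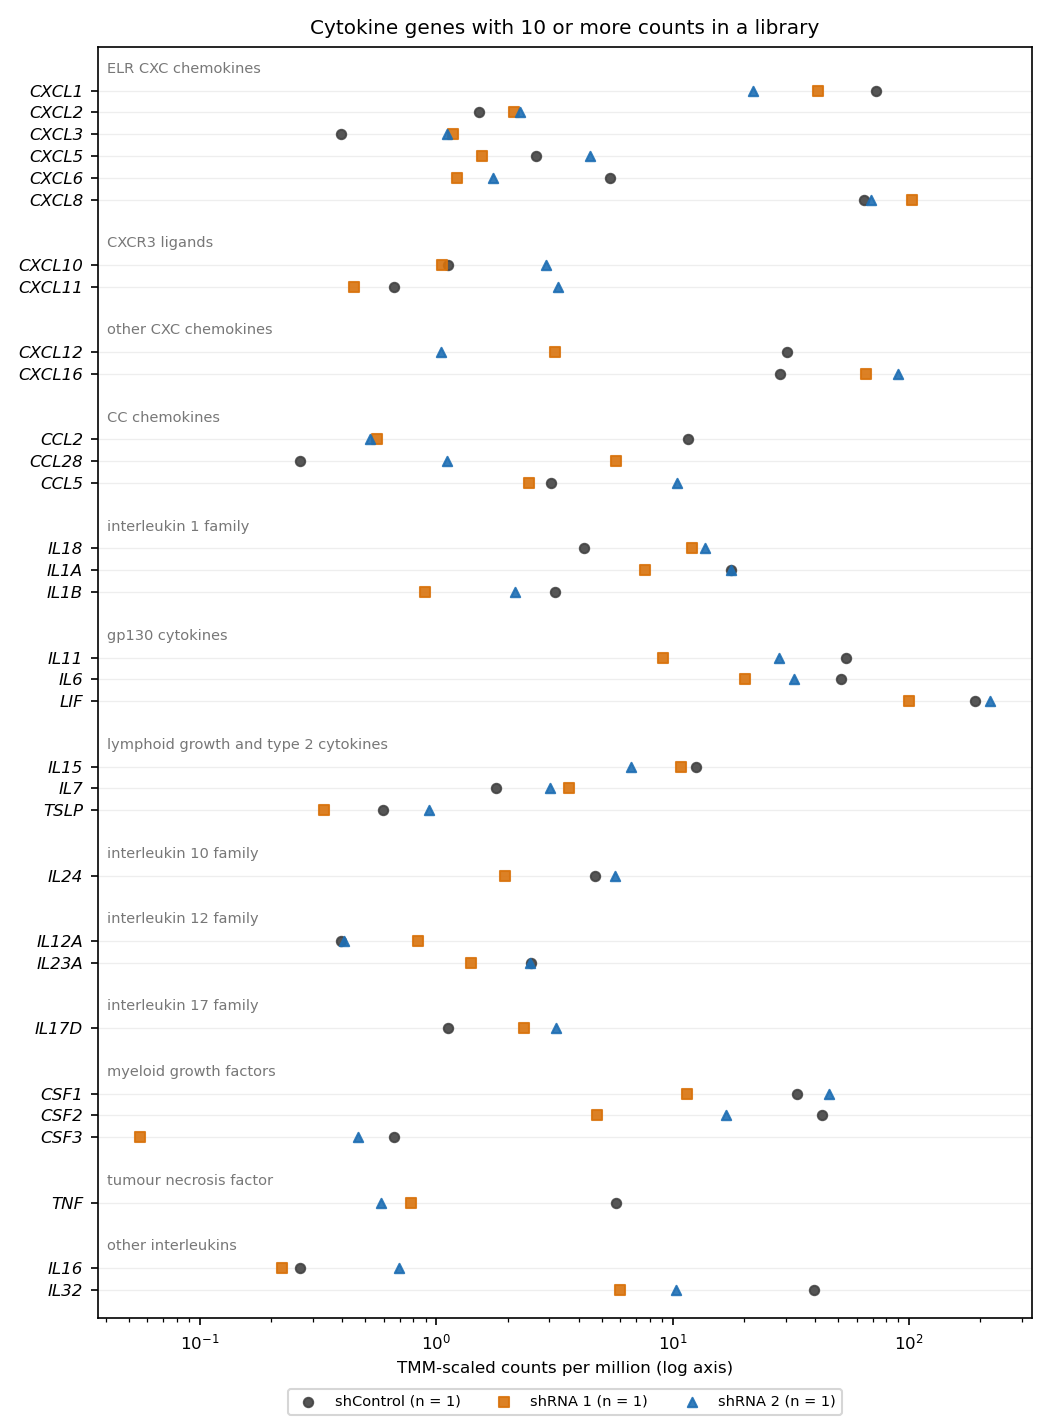
Level of the 32 cytokine genes with 10 or more counts in a library, as TMM-scaled CPM on a log axis, with 1 point per library and genes grouped by class. CXCL12, CCL2, TNF and IL32 lie far to the right in shControl, and CXCL16 and IL18 lie to the left of both hairpin libraries.

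Compared with the control, the libraries labelled with BLACAT2 hairpins held fewer transcripts of CCL2, CXCL12, TNF, CSF2, IL32 and CXCL6, and more of CCL28, CXCL16 and IL18. These 6 lower and 3 higher genes differed from the control by 2-fold or more in both libraries, out of 27 tested members. The counts describe the members that passed the filter, CCL2, TNF and CCL28 through 1 high library each, and with the filter at a mean of 5 CPM, which CCL2, TNF, CXCL6 and CCL28 do not reach, 3 were lower and 2 higher. Over all 15132 tested genes, 4.50% lay as far below the control with both and 5.29% as far above. The median log2 fold of the 27 was −0.81 with shRNA 1 and 0.09 with shRNA 2, against 0.01 and 0.04 over all tested genes. Both contrasts share the shControl library, so the hairpins do not give independent directions.

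The hairpins differed from each other in most cytokine classes. With shRNA 1, 12 members were at least 2-fold lower (7.38% of all tested genes were) and 3 were higher (7.92%). With shRNA 2, 7 were lower (8.76%) and 7 higher (13.0%). Set directly against shRNA 1, shRNA 2 was at least 2-fold higher for 11 members (8.35% of all tested genes) and at least 2-fold lower for 2 (4.48%). The 11 were CXCL5, CXCL10, CXCL11, CCL5, IL1A, IL1B, IL11, LIF, IL24, CSF1 and CSF2, and the 2 were CXCL12 and CCL28. For 15 of 27 members the mean of both log2 folds exceeded, in size, the gap between the hairpins. The share over all tested genes was not computed for this rule, so the count only describes the members.

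No member passed the group test. edgeR's quasi-likelihood test of both hairpin libraries against shControl called 0 of 27 members at an adjusted p below 0.05, and 0.0397% of all tested genes. At an unadjusted p below 0.05 it gave 10 members, against 10.2% of all genes. DESeq2 called 3 members, CXCL12, CCL2 and IL32 (3.49% of all genes), and limma called 0 members and 0 genes. At an unadjusted p below 0.05 limma gave 10 of the 27 members and 1424 of all 15132 tested genes. With 1 residual degree of freedom the test measures only the spread between the hairpin libraries, and nothing in the labels says that cultures were repeated.

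**Figure D2:**
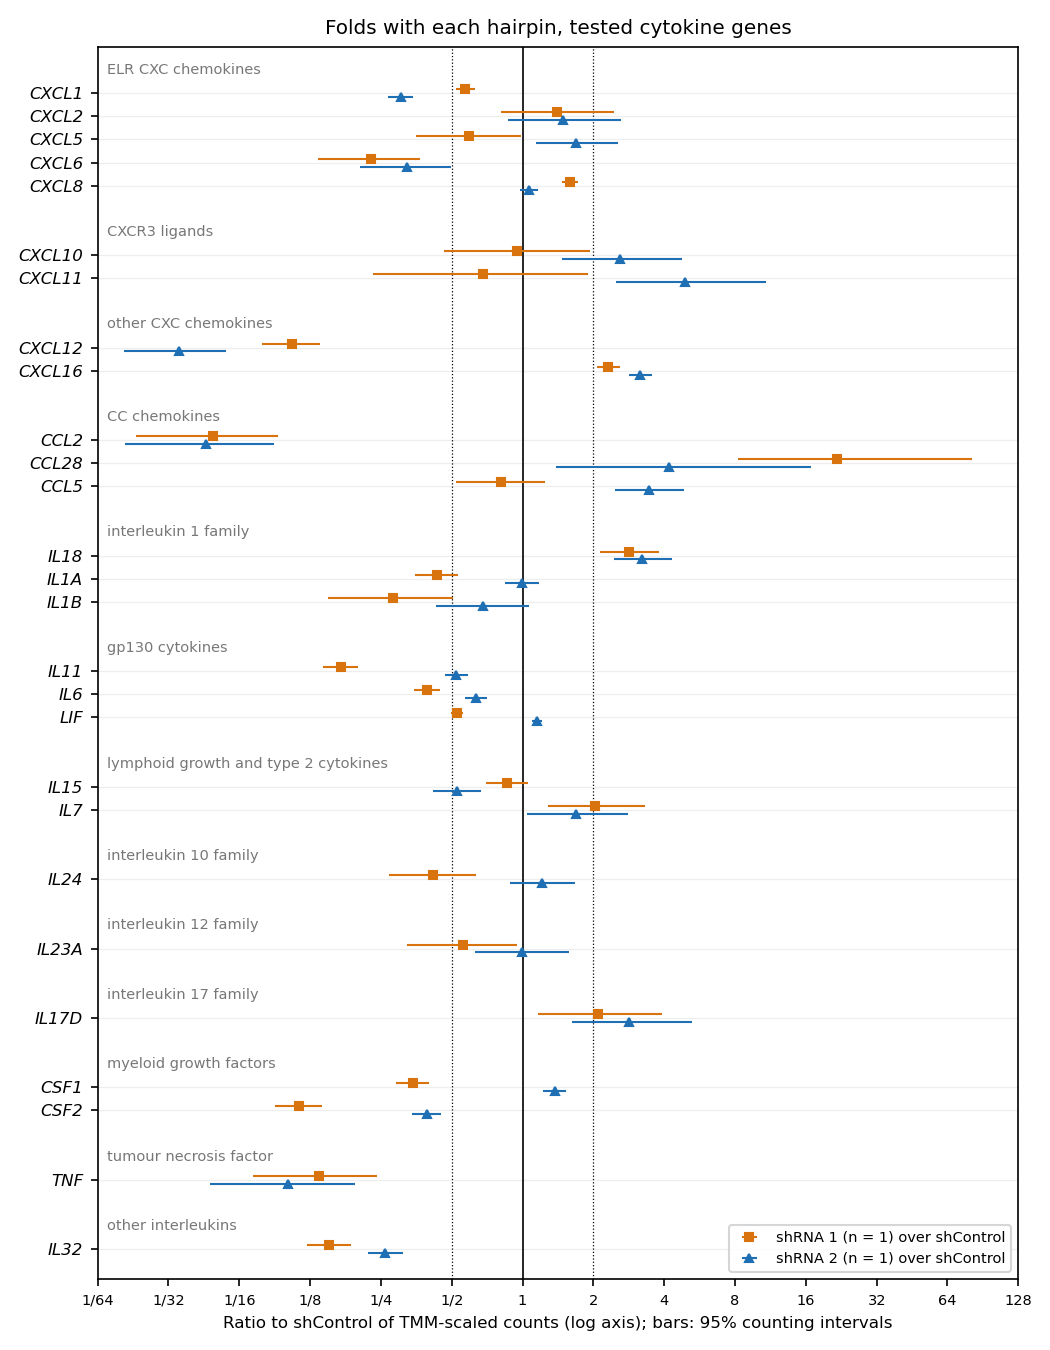
Ratio of TMM-scaled counts to shControl for the 27 tested cytokine genes with each hairpin, on a log axis, with bars for 95% counting intervals and dotted lines at 2-fold. CCL2, CXCL12, TNF, IL32, CSF2 and CXCL6 lie left of the lower line with both hairpins, and for CSF1 the points lie on opposite sides of 1.

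The ELR group of CXC chemokines, ligands of the neutrophil receptors CXCR1 and CXCR2, sits in 1 cluster. All 6 members lie on chromosome 4 between 73740506 and 74099293 (hg38), a span of 358.8 kilobases. Their upstream sequences are shown because all 6 carry the same NF-kB type motif close to the start, although the genes did not share a direction. The 150 bases before the annotated start are given 5′ to 3′ in the sense of the gene, from RefSeq on GRCh38.p14. Capitals mark matches to GGAATTTCC or to a longer NF-kB consensus (GGG, any 2 bases, then TTTCC), which overlap, and in CXCL8 also to TGANTCA (AP-1) and TATAAA, the core promoter box.
CXCL1 (chr4:73869243-73869392, plus strand): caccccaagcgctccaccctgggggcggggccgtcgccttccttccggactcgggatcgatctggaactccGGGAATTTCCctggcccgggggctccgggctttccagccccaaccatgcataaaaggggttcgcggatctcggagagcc
CXCL2 (chr4:74099196-74099345, minus strand): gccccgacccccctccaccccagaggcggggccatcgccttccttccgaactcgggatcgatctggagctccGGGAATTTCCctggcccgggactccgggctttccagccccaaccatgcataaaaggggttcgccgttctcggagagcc
CXCL3 (chr4:74038690-74038839, minus strand): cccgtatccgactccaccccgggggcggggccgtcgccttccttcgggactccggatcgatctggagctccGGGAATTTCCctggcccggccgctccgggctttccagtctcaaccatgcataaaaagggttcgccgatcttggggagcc
CXCL5 (chr4:73998678-73998827, minus strand): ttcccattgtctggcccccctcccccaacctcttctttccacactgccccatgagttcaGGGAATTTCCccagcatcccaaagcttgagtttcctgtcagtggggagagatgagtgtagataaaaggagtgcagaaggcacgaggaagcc
CXCL6 (chr4:73836528-73836677, plus strand): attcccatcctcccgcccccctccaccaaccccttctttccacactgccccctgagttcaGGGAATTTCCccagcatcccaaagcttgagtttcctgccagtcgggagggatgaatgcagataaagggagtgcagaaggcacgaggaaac
CXCL8 (chr4:73740419-73740568, plus strand): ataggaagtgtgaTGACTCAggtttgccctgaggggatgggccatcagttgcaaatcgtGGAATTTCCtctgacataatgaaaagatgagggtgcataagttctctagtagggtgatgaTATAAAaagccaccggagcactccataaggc

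In these stretches GGAATTTCC began 77 to 91 bases before the start in every ELR gene. Motifs were searched on both strands in the 250 bases before each start, and GGAATTTCC was found in 145 of 35116 starts in the RefSeq table (0.413%), while the longer consensus was found in 608 (1.73%) and in all ELR genes but CXCL8. CXCL1 and CXCL2 shared 90.0% of the 150 bases in a global alignment, CXCL1 and CXCL3 88.7%, and CXCL5 and CXCL6 90.0%, while CXCL1 and CXCL8 shared 53.3%. A match describes letters and not a bound site.

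CXCL1 had 1093 counts in shControl, 738 with shRNA 1 and 377 with shRNA 2. The ratios were 0.571 (95% counting interval 0.519 to 0.627) and 0.303 (0.269 to 0.341), so CXCL1 was lower with both and 3.30-fold lower with shRNA 2. CXCL6 had 82 counts, 22 and 30 in the same order. It was 4.41-fold lower with shRNA 1 (ratio 0.227, interval 0.135 to 0.367) and 3.11-fold lower with shRNA 2 (0.322, 0.204 to 0.494), and the hairpin libraries did not differ beyond counting error. CXCL8, the main neutrophil attractant of epithelia, went the other way with shRNA 1. It had 975, 1842 and 1184 counts, with ratios of 1.60 (1.48 to 1.73) and 1.07 (0.980 to 1.16).

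The remaining ELR members were sparsely counted. CXCL5 had 40 counts in shControl, 28 with shRNA 1 and 77 with shRNA 2, and shRNA 2 stood 2.86-fold above shRNA 1 (interval 1.84 to 4.58). CXCL2 had 23, 38 and 39 counts, with intervals that included 1 for both hairpins. CXCL3 had 6, 21 and 19 counts and was not tested, with ratios of 2.96 (1.16 to 8.96) and 2.79 (1.07 to 8.52). Of the pairs with 90.0% shared upstream sequence, CXCL1 was lower and CXCL2 was not. CXCL6 was lower with shRNA 2 while CXCL5 was higher (ratio 1.69, interval 1.14 to 2.55). With shRNA 1 both CXCL6 and CXCL5 were lower, CXCL5 with a ratio of 0.59 (0.35 to 0.98). CXCL1, CXCL2 and CXCL3 are near-identical copies in their coding parts and could share reads. Summed over the 6, the class held 147, 150 and 100 scaled CPM in shControl, shRNA 1 and shRNA 2, most of it CXCL1 and CXCL8. edgeR gave adjusted p = 0.445 for CXCL1, 0.383 for CXCL6 and 0.841 for CXCL8.

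The interferon-inducible ligands of CXCR3, which draw activated T cells, were higher with shRNA 2 alone. CXCL10 had 17 counts in shControl, 19 with shRNA 1 and 50 with shRNA 2, a ratio of 2.59 (1.47 to 4.78) with shRNA 2. CXCL11 had 10, 8 and 56 counts, a ratio of 4.93 (2.49 to 10.8) with shRNA 2, whereas the shRNA 1 intervals of both genes included 1. CXCL9, the remaining ligand, had 1, 0 and 1 counts. The CC chemokine CCL5, which recruits T cells and monocytes and is also interferon-responsive, had the same order, with 46, 44 and 180 counts and ratios of 0.808 (0.522 to 1.25) and 3.44 (2.48 to 4.87). shControl and shRNA 1 were alike for these 3 genes within counting error and shRNA 2 was high. Beside this, the myeloid marker ITGAM had 19, 6 and 288 counts. The part of other cell types in the shRNA 2 values was not tested; of the leukocyte list, CD3D and CD68 stood at 0 in every library, while S100A8 had 0, 9 and 19 counts, CD3E 0, 0 and 6, PTPRC 0, 3 and 4, and ITGAX 3, 2 and 8. CD74 had 1955, 2308 and 2242 counts and CD14 23, 15 and 20. The leukocyte chemokine receptors CCR7 (18, 12 and 83) and CCR4 (3, 2 and 26), named after their values were seen, were also highest with shRNA 2. edgeR gave an adjusted p of 0.872 for CXCL10, 0.832 for CXCL11 and 0.832 for CCL5.

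CXCL12 and CCL2 were the members furthest below the control. CXCL12, the stromal ligand of CXCR4 that holds and guides stem cells and lymphocytes, had 459 counts in shControl, 57 with shRNA 1 and 18 with shRNA 2. The ratios were 0.105 (interval 0.0782 to 0.138), which is 9.53-fold lower, and 0.0345 (0.0203 to 0.0551), a mean log2 fold of −3.96 ± 1.06 (SD, n = 2). DESeq2 gave an adjusted p of 3.76e-05 and edgeR 0.134, with a range from 3.76e-05 to 0.747 over all fits. CCL2, the monocyte attractant, had 175, 10 and 9 counts. It was 20.7-fold lower with shRNA 1 (0.0483, 0.0228 to 0.0909) and 22.1-fold lower with shRNA 2 (0.0452, 0.0203 to 0.0879). Its mean log2 fold of −4.15 ± 0.05 (SD, n = 2) was the largest in size among the 27 members. The gap between the hairpins was also the smallest among them, but it rests on 10 and 9 counts. The ratio of shRNA 2 to shRNA 1 for CCL2 had a counting interval of 0.337 to 2.57, so this closeness is not precise. DESeq2 gave an adjusted p of 0.000266 and edgeR 0.0827, and over all fits it ran from 0.000266 to 0.747.

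CXCL12 and CCL2 are also products of fibroblasts, and part of the fibroblast marker list was also lower. COL1A1 had 5253 counts in shControl, 328 with shRNA 1 and 162 with shRNA 2, and PDGFRB had 152, 15 and 31 counts. FAP, a fibroblast surface protease, had 102, 8 and 21. The smooth muscle genes on the list were not low, with ACTA2 at 38, 38 and 107 counts and MYH11 at 26, 20 and 28. The other fibroblast markers were sparsely counted in every library. COL1A2 had 16, 0 and 1 counts, COL3A1 20, 0 and 1, and THY1 2, 2 and 5. DCN had 2, 2 and 1 counts, LUM 2, 0 and 0, and PDGFRA 3, 0 and 2. The list of 11 fibroblast and smooth muscle markers, of which 5 were tested and 3 lay 2-fold or more below the control with both hairpins, summed to 371 scaled CPM in shControl, 23.1 with shRNA 1 and 20.9 with shRNA 2, of which COL1A1 alone gave 347, 18.3 and 9.42. edgeR called 0 of the 5, with 3 at an unadjusted p below 0.05, and DESeq2 called 1. Of 10 endothelial markers 4 were tested, and 1 lay 2-fold or more below the control with both hairpins. That gene was TIE1, with 55, 10 and 12 counts. ROBO4 had 155, 39 and 152 counts, KDR 13, 4 and 41, and CDH5 18, 42 and 66. Among the untested, ERG had 29, 3 and 12 counts, VWF 2, 4 and 13, and CLDN5 2, 5 and 15. edgeR called 0 of the 4 endothelial genes, with 1 at an unadjusted p below 0.05, and DESeq2 called 0. Of all tested genes, 4.50% lay 2-fold or more below the control with both hairpins. edgeR gave 10.2% of them an unadjusted p below 0.05, and DESeq2 called 3.49%. The part of these markers' source in the chemokine values was not tested, and in bulk RNA fewer cells of a type and less RNA per cell cannot be told apart. Next to CCL2 in the cluster of CC genes on chromosome 17 (34255218 to 34363231), CCL7, CCL8, CCL13 and CCL1 had 0 counts and CCL11 had 1 count in shControl alone.

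CXCL16 and CCL28, both known from epithelia, were the tested chemokines at least 2-fold above the control in both hairpin libraries; CXCL3, described above, was not tested. CXCL16, which exists as a membrane-bound scavenger and as a soluble ligand of CXCR6, had 429 counts in shControl, 1172 with shRNA 1 and 1546 with shRNA 2. The ratios were 2.31 (2.07 to 2.58) and 3.17 (2.85 to 3.54), a mean log2 fold of 1.43 ± 0.32 (SD, n = 2), with adjusted p = 0.252 by edgeR. Its exons share 85 bases with MED11 on the opposite strand, which had 90, 138 and 55 counts. CCL28, a mucosal chemokine for plasma cells, had 4, 103 and 19 counts. The ratio was 21.8 (8.25 to 81.4) with shRNA 1 and 4.18 (1.39 to 16.9) with shRNA 2, so the hairpin libraries differed 5.21-fold. edgeR gave CCL28 an adjusted p of 0.458.

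The other CC chemokines were barely counted. Of 24 CC genes, 11 had no count, 10 had 1 to 9 and only CCL2, CCL5 and CCL28 had more. CCL20, an epithelial chemokine for dendritic cells, had 5, 4 and 6 counts. CCL3 had 0, 0 and 5 counts and CCL4 0, 5 and 8, and near-identical copies of both exist. Among the remaining CXC genes, CXCL14 had 4, 1 and 3 counts and CXCL13 none.

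TNF, the founding member of its ligand family, was low in both hairpin libraries. It had 87 counts in shControl, 14 with shRNA 1 and 10 with shRNA 2. The ratios of 0.136 (0.0714 to 0.241) and 0.101 (0.0468 to 0.195) correspond to 7.35-fold and 9.89-fold lower levels, which did not differ between the hairpins beyond counting error. edgeR gave an adjusted p of 0.172 and DESeq2 0.151, within a range of 0.151 to 0.747 over all fits. Of its receptors, TNFRSF1A had 897, 790 and 840 counts and TNFRSF1B 47, 142 and 170, so that TNFRSF1B was 2.55-fold and 3.18-fold higher. Both receptors are named as partners of TNF after their values were seen.

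IL32, an intracellular and secreted cytokine without close relatives, was among the more abundant members in shControl. It had 599 counts there, 107 with shRNA 1 and 178 with shRNA 2, with ratios of 0.151 (0.122 to 0.186) and 0.261 (0.220 to 0.309). Both hairpins together gave −2.31 ± 0.55 on the log2 scale (mean, SD, n = 2). The adjusted p was 0.156 by edgeR and 0.00651 by DESeq2, and over all fits it ran from 0.00651 to 0.747.

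The upstream stretches of CXCL12, TNF and IL32 are shown because these genes had the largest folds in the same direction among members that the RefSeq table holds. The same 150 bases are given, in the sense of the gene, and for IL32 they belong to the first of its annotated starts. Capitals mark TATAAA in TNF, and in IL32 TGACGTCA (the cyclic AMP response element, CRE) and the longer NF-kB consensus.
CXCL12 (chr10:44385098-44385247, minus strand): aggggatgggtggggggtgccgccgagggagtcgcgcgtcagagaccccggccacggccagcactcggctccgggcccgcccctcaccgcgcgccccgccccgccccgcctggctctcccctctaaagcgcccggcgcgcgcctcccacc
TNF (chr6:31575415-31575564, plus strand): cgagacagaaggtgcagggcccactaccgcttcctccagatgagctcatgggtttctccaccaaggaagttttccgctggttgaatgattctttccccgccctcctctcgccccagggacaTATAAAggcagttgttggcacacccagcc
IL32 (chr16:3065253-3065402, plus strand): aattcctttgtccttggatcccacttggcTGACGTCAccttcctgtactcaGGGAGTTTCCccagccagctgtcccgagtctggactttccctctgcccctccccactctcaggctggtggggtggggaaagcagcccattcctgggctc

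No motif of those searched was found in the CXCL12 stretch, which says only that these letters are not in it. TGACGTCA was found in 1.65% of all starts, TATAAA in 10.7%, TGANTCA in 6.57% and the interferon-stimulated response element (ISRE, GAAA repeated after any 2 bases) in 3.02%. Of the 4 members at least 2-fold higher with shRNA 2 alone, CXCL10 held the ISRE and GGAATTTCC and CXCL11 held GGAATTTCC, TGANTCA and TATAAA in the same window. IL17D held TGANTCA at 1 of its 4 annotated starts and none of the other motifs. CCL5 was not found among the RefSeq starts, so its upstream sequence was not searched. Among other named members the ISRE was found in IL24, and TGANTCA in CXCL8, IL11, IL1A and IL23A. None of these was 2-fold higher with shRNA 2.

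The interleukin 1 family split between its members. IL18, which is activated by caspase 1 and drives interferon gamma production, had 64 counts in shControl, 215 with shRNA 1 and 235 with shRNA 2. It was 2.84-fold (2.14 to 3.81) and 3.23-fold (2.44 to 4.33) higher, a mean log2 fold of 1.57 ± 0.13 (SD, n = 2), with adjusted p = 0.342 by edgeR. IL1A, an alarmin stored in epithelial cells, had 268, 137 and 303 counts, with ratios of 0.432 (0.349 to 0.533) and 0.994 (0.841 to 1.18). IL1B had 48, 16 and 37 counts, with ratios of 0.282 (0.149 to 0.505) and 0.678 (0.429 to 1.06). Both interleukin 1 ligands were thus low in shRNA 1 and within counting error of the control in shRNA 2, while IL18 was high in both. IL33, IL36G and IL37 did not reach 10 counts, and IL36A and IL36B, which lie in the same 279.0 kilobase cluster on chromosome 2 as IL1A and IL1B, had none.

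The partners of IL18 and IL1 were part of lists of receptors, antagonists and proteases. IL18R1, the receptor chain of IL18, had 23 counts in shControl, 175 with shRNA 1 and 162 with shRNA 2, and its soluble decoy IL18BP 310, 110 and 147. The receptor chain was 6.43-fold and 6.19-fold higher and the decoy 3.34-fold and 2.40-fold lower. The antagonist IL1RN had 13, 48 and 57 counts and was 3.12-fold and 3.86-fold higher. CASP1, the protease that matures IL18 and IL1B, had 16, 53 and 97 counts, and CASP4 574, 1708 and 1523. IL1RL1, the receptor of IL33, had 4, 35 and 89 counts, and SIGIRR, an inhibitory receptor of the family, 174, 472 and 497. On chromosome 2 the listed span of IL1RL1 (102311502 to 102352037) overlaps that of IL18R1 (102311529 to 102398775). How reads were assigned between these 2 genes was not tested. edgeR's adjusted p was 0.187 for IL18R1, 0.327 for IL18BP, 0.492 for IL1RN, 0.472 for CASP1 and 0.252 for CASP4.

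Cytokines that signal through gp130 had the highest summed level of the 13 classes in shControl and with shRNA 2, and came after the ELR chemokines with shRNA 1. LIF, a regulator of stem cell state and tissue repair, had 2877 counts in shControl, 1794 with shRNA 1 and 3761 with shRNA 2. The ratios were 0.527 (0.496 to 0.559) and 1.15 (1.09 to 1.21). IL6, the inducer of acute-phase proteins and of STAT3 signalling, had 778, 362 and 560 counts, and was 2.54-fold (ratio 0.393, interval 0.346 to 0.446) and 1.58-fold (0.633, 0.567 to 0.707) lower. IL11, a target of TGF-beta in stromal and tumour cells, had 817, 163 and 486 counts, and was 5.93-fold (0.169, 0.142 to 0.200) and 1.91-fold (0.523, 0.467 to 0.586) lower. shRNA 1 was the lowest library for all 3 genes, and the class summed to 296 scaled CPM in shControl, 130 with shRNA 1 and 279 with shRNA 2. edgeR gave adjusted p = 0.517 for IL11, 0.507 for IL6 and 0.929 for LIF. LIF and IL6 overlap antisense genes in the annotation, and the strand setting of the counts is not given in the sources used here.

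**Figure D3:**
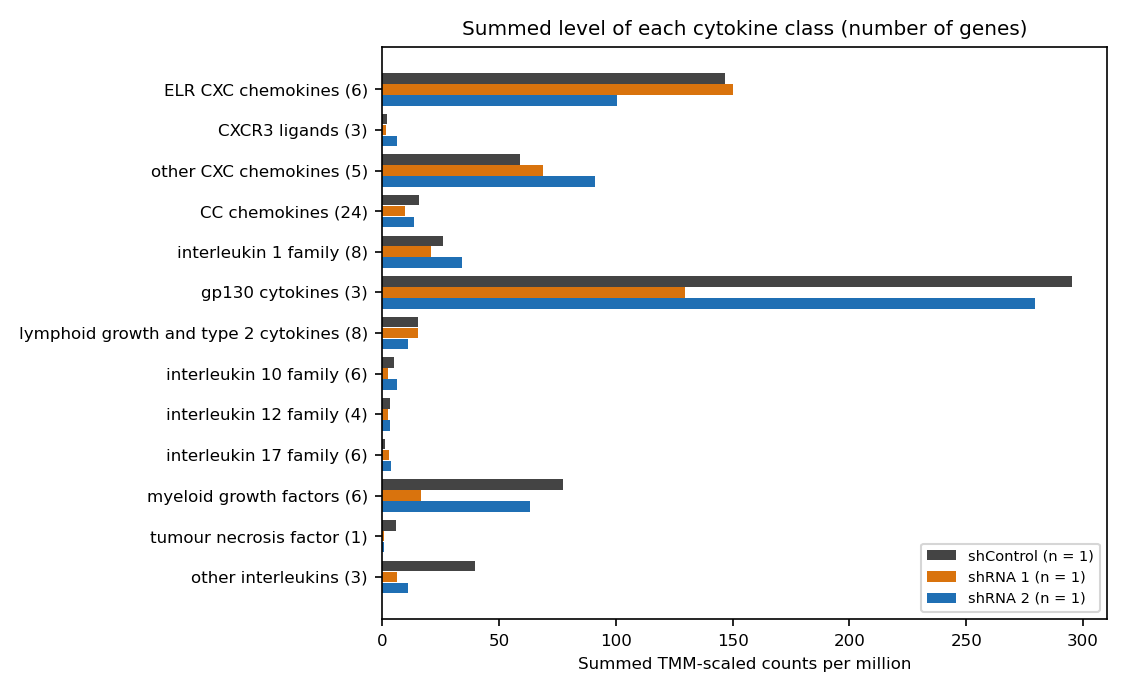
Summed TMM-scaled CPM of each cytokine class, 1 bar per library, with the number of genes in each class. The gp130 cytokines stand at 296 in shControl, 130 with shRNA 1 and 279 with shRNA 2, and the myeloid growth factors at 77.2, 16.3 and 63.4.

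The myeloid growth factors were lowest with shRNA 1. CSF2, known as GM-CSF, had 649 counts in shControl, 86 with shRNA 1 and 289 with shRNA 2. It was 8.93-fold (ratio 0.112, interval 0.0884 to 0.140) and 2.55-fold (0.392, 0.340 to 0.451) lower, and shRNA 2 stood 3.50-fold above shRNA 1 (2.74 to 4.50). CSF1, the macrophage growth factor, had 508, 205 and 791 counts, and its ratios of 0.341 (0.289 to 0.402) and 1.37 (1.22 to 1.53) lay on opposite sides of 1. CSF3, the neutrophil growth factor, had 10, 1 and 8 counts and was not tested, with a ratio of 0.0845 (0.00195 to 0.594) with shRNA 1. IL3, the gene beside CSF2 on chromosome 5 within 15.6 kilobases, had no count, and IL4, IL5 and IL13 further along had 4 counts at most. IL34, the second ligand of the CSF1 receptor, had 1 count in shControl and 0 with both hairpins. edgeR gave CSF2 an adjusted p of 0.427 and CSF1 0.962.

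Lymphoid growth factors showed small differences. IL15, which supports natural killer and memory T cells, had 190 counts in shControl, 193 with shRNA 1 and 114 with shRNA 2, with ratios of 0.858 (0.699 to 1.05) and 0.528 (0.415 to 0.669). IL7, a survival factor of lymphocytes, had 27, 65 and 52 counts, with ratios of 2.03 (1.28 to 3.32) and 1.69 (1.05 to 2.81). TSLP, an epithelial alarmin, had 9, 6 and 16 counts and was not tested. IL7 shares 322 exonic bases with ZC2HC1A on the opposite strand, which had 127, 214 and 173 counts, and how reads were assigned between them was not tested.

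Single members stood for the remaining families. IL24, of the interleukin 10 family, had 71 counts in shControl, 35 with shRNA 1 and 98 with shRNA 2, and was 2.40-fold lower with shRNA 1 alone (ratio 0.417, interval 0.270 to 0.633). IL23A, a subunit of interleukin 23, had 38, 25 and 43 counts, while IL12B, with which it pairs, had 5, 1 and 2. IL12A had 6, 15 and 7 counts and IL16 had 4, 4 and 12, and neither was tested. IL17D had 17, 42 and 55 counts, with ratios of 2.09 (1.16 to 3.91) and 2.85 (1.63 to 5.23). Its log2 fold of 0.99 with shRNA 1 kept it just under the 2-fold rule, and 1296 of its 3327 exonic bases overlap an antisense RNA. IL17A, IL17F and IL25 had no count.

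Receptors of these ligands were followed as a list of 58 genes. Of them 31 were tested, 5 were at least 2-fold higher and 3 lower with both hairpins, and the median log2 folds were 0.11 and 0.28. IL7R, the receptor chain of IL7 and TSLP, had 294 counts in shControl, 29 with shRNA 1 and 36 with shRNA 2, with ratios of 0.0834 (interval 0.0549 to 0.122) and 0.108 (0.0740 to 0.153). IL20RA, a receptor chain of IL24, had 7, 62 and 70 counts. CSF1R, named after its values were seen, had 1496, 263 and 518 counts and was 6.73-fold and 3.28-fold lower. It is best known from macrophages. edgeR called 0 of the 31 and gave 9 at an unadjusted p below 0.05, while DESeq2 called 3. Over all tested genes, 5.29% were 2-fold or more higher with both hairpins and 4.50% lower. edgeR gave 10.2% of all tested genes an unadjusted p below 0.05, and DESeq2 called 3.49%. The receptors of the ELR chemokines were nearly silent, with CXCR1 at 3, 0 and 0 counts and CXCR2 at 2, 1 and 7. CSF2RA had 1, 0 and 6 counts and CCR2 0, 0 and 1.

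Along the CXCL12 axis the ligand and both receptors were low in the hairpin libraries. ACKR3, the scavenging receptor of CXCL12, had 589 counts in shControl, 19 with shRNA 1 and 15 with shRNA 2. It was 36.7-fold (ratio 0.0273, interval 0.0163 to 0.0430) and 44.7-fold (0.0224, 0.0125 to 0.0373) lower. CXCR4, the signalling receptor, had 31, 11 and 8 counts, and its log2 folds were −1.56 and −1.89. edgeR gave ACKR3 an adjusted p of 0.0696 and DESeq2 3.4e-13. CXCR6, the receptor of CXCL16, had 17, 25 and 24 counts, with intervals that included 1.

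**Figure D4:**
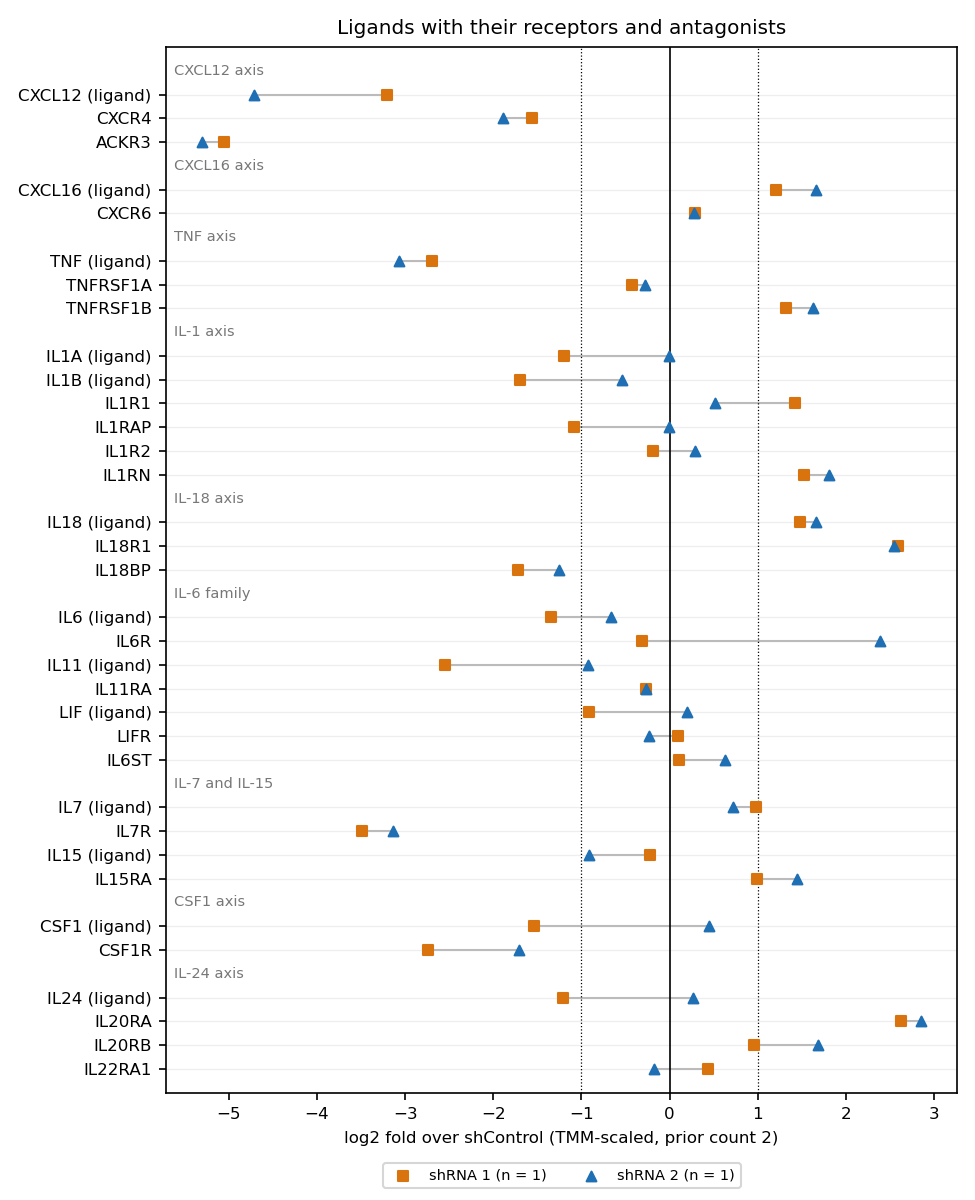
log2 fold over shControl (TMM-scaled, prior count 2) of ligands and their receptors and antagonists, 1 point per hairpin, with dotted lines at 2-fold. CXCL12, CXCR4 and ACKR3 all lie at −1.56 or below, whereas IL18 and IL18R1 lie to the right and IL18BP to the left.

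The gp130 receptors were carried by the common chain. IL6ST, which encodes gp130, had 2379 counts in shControl, 3045 with shRNA 1 and 4194 with shRNA 2. IL6R had 61, 58 and 370 counts, a ratio of 5.33 (4.06 to 7.11) with shRNA 2 and 0.803 (0.551 to 1.17) with shRNA 1. IL11RA had 102, 100 and 96 counts and LIFR 141, 178 and 136. These receptors are named as partners of the ligands after their values were seen.

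Signalling and control genes downstream were mostly level. Of 27 signal transducers, all tested, 1 lay 2-fold or more below the control with both hairpins and 0 above, and the medians were −0.06 and −0.03. That gene was STAT4, with 80, 3 and 30 counts. Among 8 factors of mRNA decay and stability 1 was lower and 0 higher, ZC3H12A, a ribonuclease that degrades IL6 mRNA, with 746, 369 and 372 counts. Of 16 NF-kB subunits and feedback genes 2 were higher and 0 lower, with BIRC3 at 299, 1476 and 948 counts and BCL3 at 107, 300 and 260. Of 9 tested processing proteases 4 were higher and 0 lower, led by PCSK5 (32, 456 and 144 counts) and by DPP4, which trims and inactivates several chemokines (38, 308 and 120). Of 7 tested antagonists and decoys 2 were higher and 2 lower. edgeR called 0 genes in each of these 5 lists, and at an unadjusted p below 0.05 it gave 1, 1, 2, 4 and 3 genes in the order named here. DESeq2 called 0, 0, 1, 1 and 1. The shares over all tested genes were 4.50% lower and 5.29% higher by 2-fold with both hairpins. They were 10.2% at an unadjusted p below 0.05 by edgeR and 3.49% called by DESeq2.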

How the data were processed

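The deposited table holds 2 values the authors made for each gene and library, a count of reads and an FPKM; TopHat2 2.0.9 and hg38 were used, per the submitters' processing notes, while for the counting tool, strand setting and annotation release nothing is given in the sources used here. Of 50871 lines, 4 that hold 1 broken gene row were left out, leaving 50867 genes. FPKM deposited by the authors served only to check gene lengths; levels between genes were computed as scaled counts per kilobase of merged GENCODE 29 exon. Counts were scaled with edgeR 4.0.16 TMM factors (0.924, 1.02 and 1.07 for shControl, shRNA 1 and shRNA 2). Genes averaging 1 CPM or more were tested with edgeR's two-sided quasi-likelihood test, Benjamini-Hochberg adjusted over 15132 genes, both shBLACAT2 libraries against shControl (1 residual degree of freedom). log2 folds use a prior count of 2; a gene counted as 2-fold away when both hairpins gave that size in 1 direction. Each 95% interval of a ratio is exact (binomial, conditional on the summed counts) and, like the floor of 3 counts, cover counting error only. DESeq2 1.42.0, limma 3.58.1, other scalings, filters and prior counts were alternatives. The scripts were tested on simulated data. Members with 10 or more counts in a library are named; of each list, up to 4 genes past 2-fold. The planned printing of chemokine proteins was not done, as no protein sequences were used here. Members and lists were chosen with earlier results of these data known. Of the members, 60 were found by symbol among the RefSeq starts.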

Additional observations from a re-analysis of the deposited data

How the results depend on the processing

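Every fold of 2 or more among the 27 tested members kept its direction under each other scaling, filter and prior count that included the gene. The filter at 5 CPM included only 14 of them. Of 298 recomputed member folds, 287 stayed within their counting interval. The 11 that moved beyond it all did so with library totals as the scaling, which centres all genes at log2 folds of 0.14 and 0.24 (medians), and puts the higher share of all genes 2-fold away with both hairpins at 65.1% against 54.0% with TMM. The number of members at least 2-fold lower was 3 with the filter at a mean of 5 CPM, which leaves 14 members, and the number at least 2-fold higher was 6 without a low-count filter, which admits 59. With 1 hairpin library left out, which leaves no residual degrees of freedom and so no test, the lower members numbered 7 (shRNA 2 alone) and 12 (shRNA 1 alone), and the higher members 7 and 3. DESeq2 called 3 members and 528 of all genes, where edgeR called 0 and 6. Over all genes edgeR called 0 without the filter (1461 at an unadjusted p below 0.05) and 0 with the filter at 5 CPM (1240), and limma called 0 (1424); the cause was not tested. No paired analysis was possible because the control is a single library without a replicate number. Depth limits the 51 members with fewer than 10 counts, of which 4 (CCL4, IL17B, IL33 and IL37) had a difference between libraries beyond counting error, and with 1 library per condition no hairpin has a replicate check.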

Other observations

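Ligands close to the set but outside its naming rule were counted as well. CLCF1, a further gp130 cytokine, had 232 counts in shControl, 373 with shRNA 1 and 578 with shRNA 2, with scaled ratios of 1.36 (95% counting interval 1.15 to 1.61) and 2.19 (1.88 to 2.56). It was thus above the control with both hairpins, unlike IL6 and IL11. CTF1, of the same family, had 101, 72 and 144 counts. EBI3, the partner of IL27 in its heterodimer, had 16, 4 and 21 counts, while IL27 itself had 1, 0 and 1. OSM had 2, 0 and 1 counts, CX3CL1 0, 2 and 2, and PF4, PPBP and XCL2 none. CCL3L3 and CCL4L2, copies of CCL3 and CCL4, had 1, 0 and 9 and 2, 0 and 3 counts.

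The deposited FPKM values of members with several annotated transcripts and at least 20 counts rest on lengths above the merged exon length. For the 5 members with 1 GENCODE transcript and at least 20 counts, the length implied by count and FPKM equalled the merged exon length within 2 bases. For the 23 members with several transcripts it was longer in every case, by 1.11 to 5.80 times. IL32, with 35 transcripts, had an implied length of 18615 bases against 3209 bases of merged exon, so that its deposited FPKM of 1.96 in shControl puts it far lower among the ligands than its counts per kilobase of merged exon do (12.3). Comparisons of 1 gene between libraries are not affected, since the length is the same in each.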
